A study of Mus musculus with 247 samples.

Results

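The AP-1 subunits described here are the 9 mouse genes Jun, Junb, Jund, Fos, Fosb, Fosl1, Fosl2, Batf and Batf3, taken by gene symbol, with every deposited peak annotated to one of them. Of the 9, 8 were in the RNA table of 14378 genes and 7 of these were among the 11791 genes abundant enough to test: Fosb was too low, and Batf3 has no row in the table and is described by its peaks only. The members held 76 of 73206 open chromatin peaks, 77 of 58888 JunB peaks, 64 of 52093 PU.1 peaks, 51 of 26718 MED1 peaks (49 of them tested) and 27 of 23360 RNA polymerase II (Pol II) peaks. Peaks had been annotated by the authors to the gene with the nearest start site, so that an assignment says where a peak lies and not which gene it acts on.

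AP-1 is a family of leucine zipper transcription factors that bind DNA as pairs. The Jun proteins can pair with one another or with a Fos protein, whereas the Fos proteins need a Jun partner, and the Batf proteins also take a Jun partner and lack the activation domains of Fos. In macrophages the family is best known as a fast target of Toll-like receptor signalling and, beside the lineage factor PU.1, as one of the factors that mark enhancers.

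All libraries came from RAW264.7, a mouse macrophage-like line whose strain label is BALB/c, either wild type (WT) or with the corepressor subunit GPS2 knocked out by CRISPR/Cas9 (GPS2 KO). The labels name no clone, and they do not say whether the libraries of a group came from separate cultures, so the tests measure the spread between these libraries. Poly(A) RNA came from untreated cells or from cells given lipopolysaccharide (LPS, the bacterial cell wall component sensed by Toll-like receptor 4) at 10 ng/ml for 6 hours, with 4 libraries in each of 4 groups. Open chromatin was measured by ATAC-seq in untreated cells only, with 3 libraries labelled control and 3 labelled GPS2 KO. JunB and PU.1 were mapped by chromatin immunoprecipitation (ChIP-seq) in WT and GPS2 KO cells without LPS and after 2 hours of LPS, and the Mediator subunit MED1 and Pol II after 2 hours of LPS only, with 2 libraries per group. The LPS dose of the ChIP-seq samples is not given in the sources used here, and RNA after 6 hours and occupancy after 2 hours are different times. These are 46 of the 247 samples of the series. The rest were not analysed here.

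Depth was 12094939 to 22968592 mapped reads per RNA library, 4038814 to 7108592 for ATAC-seq, and 8096466 to 16006472 for ChIP-seq. Gps2 RNA was 415 to 458 reads per 10000000 mapped reads after scaling in untreated WT libraries, 420.4 to 496 in WT with LPS, 129.6 to 135 in GPS2 KO and 76.9 to 98.5 in GPS2 KO with LPS, so it was lower in every KO library and still present. All 8 macrophage markers were detected, and their summed level was 74296 to 82482 in WT, 49459 to 59959.5 in WT with LPS, 105195 to 111757 in GPS2 KO and 71443 to 75796 in GPS2 KO with LPS. The sum thus moved with GPS2 loss and with LPS, and its part in the results was not tested. Of the markers of lymphocytes 2 of 7 were in the table, of granulocytes 2 of 6 and of fibroblasts or epithelium 1 of 7, and those of lymphocytes and of fibroblasts or epithelium summed to at most 1.92 and 1.1 per library. The granulocyte sum moved with the groups, at 0 to 0.548 in WT, 3.56 to 19.3 in WT with LPS, 2.55 to 6.74 in GPS2 KO and 15.6 to 20.8 in GPS2 KO with LPS, and its part in the results was not tested either. WT LPS replicate 4 stood apart from its group: chi-square per gene against the other 3 libraries was 98.6 to 138, where the pairs among those 3 gave 5.2 to 9.51, and values without it are given wherever it moved a call. Within each ChIP-seq group the 2 libraries differed by little more than sampling noise, which gives a chi-square per peak near 1: it was 0.823 to 1.16, the highest for JunB in untreated GPS2 KO cells (1.16) and for Pol II in WT with LPS (1.1). Each pair is best read as 1 sample, although the fits entered its 2 libraries as replicates. The SE and adjusted p of a ChIP-seq change thus measure noise between libraries and not the spread between cultures. Both values are printed with no SD.

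RNA levels are printed as reads per 10000000 mapped reads after trimmed-mean (TMM) scaling, which sets the bulk of genes equal between libraries. A change is a difference of log2(level + 1) from limma fitted to all 16 libraries, with p-values adjusted over all 11791 genes by the Benjamini-Hochberg method and a call at an adjusted p under 0.05. In a line of 1 cell type, fewer RNA molecules per cell and fewer cells that carry them cannot be told apart.

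In untreated cells, loss of GPS2 was accompanied by more Jun and Batf RNA and by less Fos, Jund, Junb and Fosl1 RNA. That is 2 of 7 tested members higher and 4 lower, where 18% of all genes tested were higher and 17.5% lower. With LPS the counts were again 2 higher and 4 lower, against 22.1% and 22.1%, and Fosl2 took the place of Fosl1 among the lower ones. LPS itself raised 6 of the 7 in WT cells (34.2% of all genes were higher) and lowered 1, Jun (36.2% were lower), and it did the same in GPS2 KO cells, where 31.5% of all genes were higher and 36.1% lower. The test of a difference between the LPS responses of the genotypes was passed by 4 of the 7. The response was larger in GPS2 KO cells for Fos and Fosl1 (10.2% of all genes) and smaller for Fosl2 (10.4%). Batf was also called larger, which is no evidence of a difference. Batf passed the filter on low values only through the GPS2 KO LPS libraries, so it had to differ, and it adds 1 to each count of higher members by that route. Each of these directions was the same on library totals, and without GPS2 KO LPS replicate 3 the responses of 2 members differed.

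**Figure D1:**
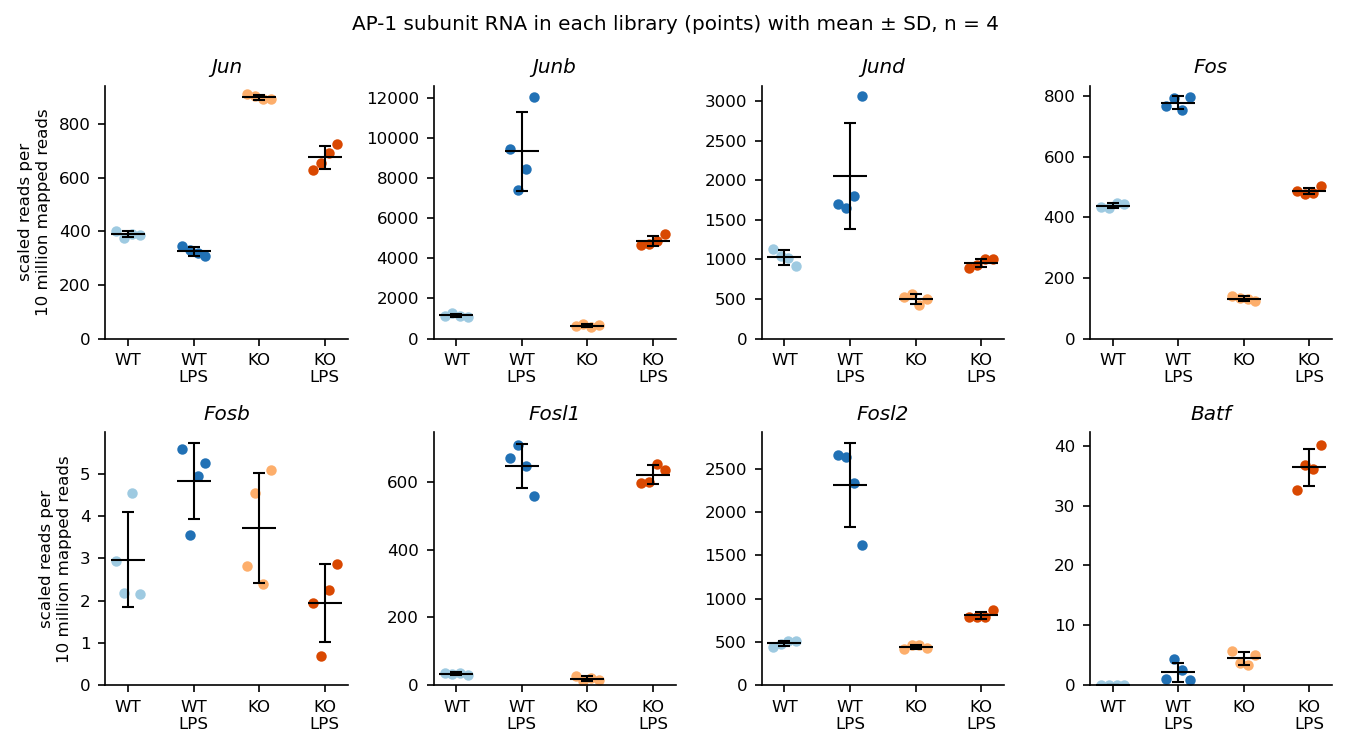
RNA of the 8 AP-1 subunits in the table, in scaled reads per 10000000 mapped reads (vertical axis, from 0), for WT and GPS2 KO cells without and with LPS for 6 hours. Points are libraries and bars the mean ± SD of 4. Jun is higher in all 8 GPS2 KO libraries than in any WT library, and Fos is lower in GPS2 KO than in WT within each treatment.

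Jun encodes c-Jun, the founding member of the Jun family and the main substrate of the JNK kinases. It lies on chromosome 4 from 94715727 to 94718913 on the minus strand (mm9, as in the deposited table) and has no intron. Its level was 399.7, 373, 391 and 387 in WT, 346, 331, 319 and 306 in WT with LPS, 911, 904, 891 and 891 in GPS2 KO, and 627, 656, 693 and 725 in GPS2 KO with LPS. All 8 GPS2 KO libraries lay above all 8 WT libraries, and within each genotype every LPS library lay below every untreated one. Loss of GPS2 raised Jun by 1.21 ± 0.06 (log2, SE; 2.32-fold; adjusted p = 9.3e-11) without LPS and by 1.05 ± 0.06 with LPS (2.07-fold; adjusted p = 6.8e-10). LPS lowered it, with a log2 change of -0.25 in WT and -0.42 in GPS2 KO. The difference between these LPS responses did not pass (-0.16 ± 0.08, adjusted p = 0.18), and passed without WT LPS replicate 4 (-0.18, adjusted p = 0.034).

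Junb encodes JunB, the Jun protein mapped by ChIP-seq in the series, and lies on chromosome 8 from 87500808 to 87502647 on the minus strand. It was the most abundant member per kilobase of transcript in every group. Its level was 1135, 1269.8, 1111 and 1081 in WT and 9427, 7393, 8445 and 12005 in WT with LPS. In GPS2 KO it was 616, 733, 561 and 651, and 4679, 4687, 4866 and 5205 with LPS. The groups did not overlap. LPS raised Junb 7.99-fold in WT and 7.6-fold in GPS2 KO, and the difference of these responses was -0.07 ± 0.17 (adjusted p = 0.81). Loss of GPS2 lowered Junb by a log2 change of -0.85 ± 0.12 without LPS (adjusted p = 4.1e-05) and -0.92 ± 0.12 with LPS (adjusted p = 1.6e-05).

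Jund encodes JunD, known as the steadily expressed Jun protein of resting cells, and lies on chromosome 8 from 73221638 to 73224515 on the plus strand. WT libraries held 1129, 1042, 1017 and 911, and GPS2 KO libraries 526, 561, 418 and 504. With LPS the values were 1703, 1648, 1804 and 3060.0 in WT, the last being the library that stood apart, and 892, 933, 1005 and 999 in GPS2 KO. Within each treatment all GPS2 KO libraries were below all WT libraries, and the GPS2 KO libraries with LPS reached the level of WT libraries without it. The log2 change with GPS2 loss was -1.03 ± 0.16 without LPS and -1.05 ± 0.16 with LPS (adjusted p = 8.7e-05 and 6.3e-05), or -0.84 with LPS when WT LPS replicate 4 was left out. LPS raised Jund 1.94-fold in WT and 1.91-fold in GPS2 KO.

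The RNAs of the Jun family changed in opposite directions, and their proportions differed between the genotypes. Per kilobase, Jun made up 11.1% ± 0.774 (SD, n = 4) of the summed Jun family RNA in WT and 35.2% ± 2.48 in GPS2 KO. With LPS its share was 1.8% ± 0.402 in WT and 6.64% ± 0.138 in GPS2 KO. Junb went from 56.7% to 43.2% without LPS, and from 86.2% to 82.9% with LPS. The ranges of Jun's share over libraries did not overlap between genotypes: 10.0 to 11.8% against 32.3 to 38.3% without LPS, and 1.25 to 2.21% against 6.44 to 6.76% with LPS.

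Fos encodes c-Fos, the classic immediate early gene, and lies on chromosome 12 from 86814840 to 86818224 on the plus strand. Its level was 435, 430.0, 446 and 444 in WT, 769, 794, 755 and 799 in WT with LPS, 141, 135, 130.1 and 124 in GPS2 KO, and 487, 478, 481 and 503 in GPS2 KO with LPS. Each group was tight and none overlapped another. Loss of GPS2 lowered Fos 3.3-fold without LPS (log2 change -1.72 ± 0.05, adjusted p = 6e-13), a change at percentile 1 of those of all genes tested, and 1.6-fold with LPS (-0.68 ± 0.05, adjusted p = 3.6e-08). LPS raised it 1.77-fold in WT and 3.66-fold in GPS2 KO, and this difference between responses passed the test (log2 1.04 ± 0.07, adjusted p = 3.9e-08).

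Fosl1 encodes Fra-1 and Fosl2 encodes Fra-2, Fos relatives that are usually made later and for longer than c-Fos. Fosl1 (chromosome 19, 5447698 to 5455938, plus strand) was low without LPS, at 35.9, 34, 36.5 and 28.5 in WT and 27.5, 12.8, 20.6 and 15.8 in GPS2 KO. With LPS it reached 673, 712, 647 and 559.6 in WT and 597, 600.0, 655 and 636 in GPS2 KO, where the genotypes overlapped. LPS raised it 18.7-fold in WT and 32-fold in GPS2 KO, the largest fitted responses among the 7. The lower level in untreated GPS2 KO cells passed (log2 change -0.83 ± 0.17, adjusted p = 0.0011) and the difference with LPS did not (-0.05 ± 0.17, adjusted p = 0.81). The test of the difference between LPS responses passed (0.78 ± 0.24, adjusted p = 0.028), and it missed the threshold without WT replicate 1 or 3, GPS2 KO replicate 4 or GPS2 KO LPS replicate 3 (adjusted p = 0.051 to 0.063).

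Fosl2 (chromosome 5, 32438845 to 32460212, plus strand) had the opposite pattern. Without LPS the genotypes overlapped, at 442, 470.1, 508 and 504 in WT and 419, 462, 463 and 426 in GPS2 KO. With LPS, WT libraries held 2666, 2645, 2335 and 1620.1 (the last again replicate 4) and GPS2 KO libraries 792, 785, 787 and 869. LPS thus raised Fosl2 4.72-fold in WT and 1.83-fold in GPS2 KO, a difference of -1.37 ± 0.17 (log2, adjusted p = 2.8e-05). The level with LPS was lower in GPS2 KO by a log2 change of -1.49 ± 0.12 (adjusted p = 9.9e-08), and -1.65 without WT LPS replicate 4. The change without LPS was -0.12 ± 0.12 (adjusted p = 0.49). It was called at -0.13 without that library (adjusted p = 0.038) and at -0.12 in a fit of the untreated groups alone (adjusted p = 0.045).

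Fosb, another immediate early Fos gene (chromosome 7, 19888045 to 19895394, minus strand), was close to the detection limit. Its 4 libraries together held 26 reads in WT, 32 in WT with LPS, 31 in GPS2 KO and 10 in GPS2 KO with LPS, and its scaled level ran from 0.679 to 5.59. It was not tested. In the summed Fos family RNA per kilobase, Fos held 67% in WT and 41.8% in GPS2 KO, where Fosl2 held 26.4% and 50.1%. With LPS, Fosl1, Fosl2 and Fos had nearly equal shares in WT (33.2%, 34.1% and 32.6%), and in GPS2 KO Fosl1 held 49.7%, Fos 31.5% and Fosl2 18.7%.

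Batf, a small AP-1 protein best known from lymphocytes and dendritic cells (chromosome 12, 87027670 to 87050037, plus strand), had no read in the 4 untreated WT libraries. The other groups held 14 reads (WT with LPS), 36 (GPS2 KO) and 194 (GPS2 KO with LPS), or 1.02, 4.27, 2.48 and 0.878, then 5.61, 3.73, 3.36 and 5.1, then 32.6, 36.7, 36.1 and 40.2 as scaled levels. All 8 GPS2 KO libraries had reads, and GPS2 KO with LPS lay above every other library. Against the floor of 3 reads over the 4 untreated WT libraries, Batf was at least 6.13-fold higher in WT with LPS, at least 12.5-fold higher in GPS2 KO and at least 103-fold higher in GPS2 KO with LPS. GPS2 KO with LPS was 16.8 times WT with LPS in pooled scaled reads (log2 change of the fit 3.69 ± 0.28), given with no p because that group alone carried Batf past the filter. The granulocyte marker S100a8 was also low and also higher in GPS2 KO. Its mean was 0.26 in WT and 4.52 in GPS2 KO, and 9.39 and 17.5 with LPS. The fitted log2 changes of S100a8, 2.11 ± 0.36 without LPS and 1.02 ± 0.36 with LPS, depend on the pseudocount of 1. They are given with no p, because GPS2 KO with LPS was its highest group and helped it past the filter. Whether S100a8 bears on Batf was not tested. The fitted difference between the LPS responses of Batf, 1.27 (adjusted p = 0.03), is no evidence of a difference for the same reason, and it rests on a group with no reads and the pseudocount of 1: it was 0.70 (adjusted p = 0.35) with a pseudocount of 0.5 -0.19 (adjusted p = 0.83) in a fit with precision weights and 1.04 (adjusted p = 0.071) on library totals, and it missed the threshold in 6 fits without 1 library (adjusted p = 0.052 to 0.063).

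**Figure D2:**
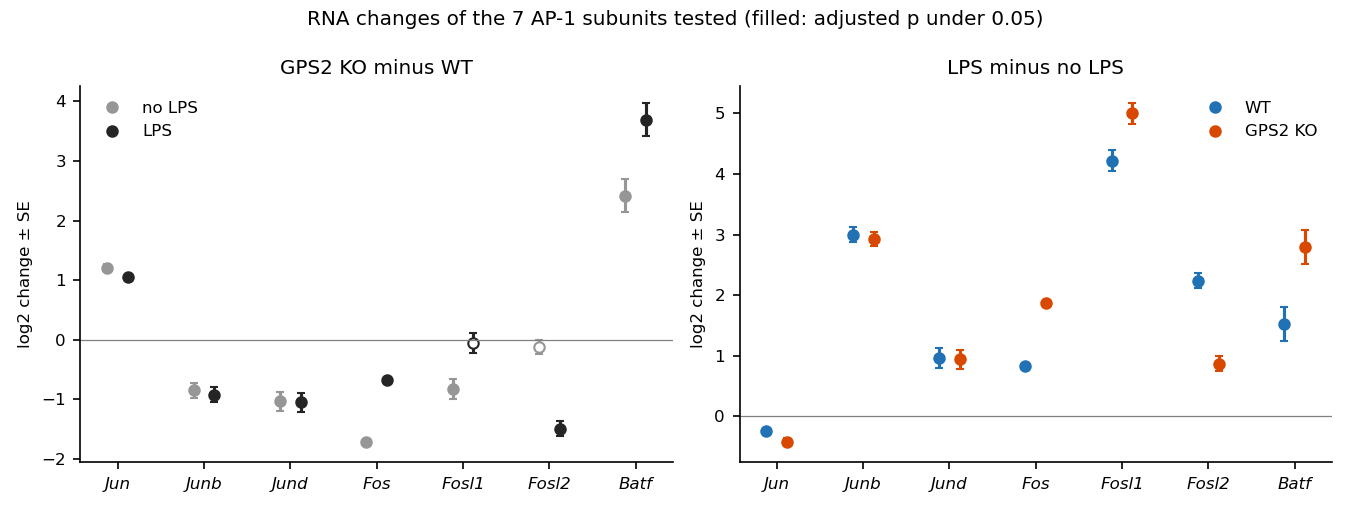
RNA changes of the 7 subunits tested, as log2 change ± SE (vertical axis): GPS2 KO minus WT without and with LPS (left) and LPS minus no LPS in WT and GPS2 KO (right). Filled points passed at an adjusted p under 0.05. Jun and Batf lie above 0 at left in both treatments, and Fosl2 lies near 0 without LPS and at -1.49 with LPS. Batf passed the filter on low values only through GPS2 KO with LPS. Its filled points in comparisons with that group are therefore no evidence of a change.

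Ordered by reads per kilobase of transcript, untreated WT cells had Junb (626), Jund (356), Fos (209), Jun (122), Fosl2 (82.1) and Fosl1 (19.9), with no overlap between neighbours. With LPS the order in WT was Junb (5072), Jund (714), Fosl2 (395), Fosl1 (381), Fos (371) and Jun (102). There Fosl2, Fosl1 and Fos overlapped one another. In untreated GPS2 KO cells Jun (282) came after Junb (349) and above Jund (175), Fosl2 (75.5), Fos (63) and Fosl1 (11.3), again with no overlap between neighbours. In GPS2 KO cells with LPS the order was Junb (2645), Fosl1 (366), Jund (333), Fos (232), Jun (212), Fosl2 (138) and Batf (40.5), and only Fos and Jun overlapped. Jun was at place 4 in untreated WT and at place 2 in untreated GPS2 KO cells, and Fosl2 at places 3 and 6 with LPS.

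Across the 16 libraries, which share their 4 groups and their depth, the genes whose log2 level was most like that of a member were the following, with Pearson's r over 11790 genes compared and no test. For Jun they were Gpnmb (0.993) and Sorl1 (0.986). For Junb they were Ogfr and Dusp2 (0.997 each), for Jund Igsf8 (0.991) and Thoc6 (0.988), and for Fos Tubb6 (0.995) and Cd36 (0.992). For Fosl1 they were Oasl2 and Mndal (0.995 each), for Fosl2 Ankrd13c (0.985) and Pik3r5 (0.983), and for Batf Evi2b and Evi2 (0.987 each), which share a locus, so that their reads may not be told apart. Between members, Junb and Fosl1 were most alike (0.963) and Jun and Jund least (-0.863).

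The partners, kinases, regulators and targets of AP-1 were counted from lists of textbook members, drawn up with earlier results of these data known. Of 12 AP-1 partners of the ATF, JDP, BATF, MAF and IRF families, 5 rose and 3 fell with GPS2 loss without LPS and 3 rose and 6 fell with LPS (18% and 17.5% of all genes, then 22.1% each way), with medians of 0.10 and -0.34 where the medians over all genes were 0.01 and 0.00. Maf, which encodes c-Maf, rose by a log2 change of 2.16 ± 0.09 without LPS (adjusted p = 2.3e-11) and fell with LPS (-0.80 ± 0.09, adjusted p = 2.2e-06). LPS raised 10 of the 12 in WT (34.2% of all genes), where the other 2 did not pass, and raised 7 (31.5%) and lowered 1 (36.1%) in GPS2 KO. The response to LPS was larger in GPS2 KO for 1 and smaller for 6, against 10.2% and 10.4% of all genes.

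Of 18 MAP kinase pathway genes, 5 rose and 4 fell without LPS and 5 rose and 5 fell with LPS in GPS2 KO, with medians of 0.02 and -0.03. These counts are near those of all genes, of which 18% rose and 17.5% fell without LPS and 22.1% each way with LPS. Map2k6, which encodes the p38 activator MKK6, rose in both (3.06 ± 0.20 and 3.46 ± 0.20 on the log2 scale, adjusted p = 5.4e-09 and 1.6e-09). Its mean without LPS was 13.3 in WT and 117 in GPS2 KO. With LPS the mean was 0 in WT and 10.4 in GPS2 KO, so the size of that change is set by the pseudocount of 1. LPS raised 7 and lowered 8 of them in WT, against 34.2% and 36.2% of all genes. Of 10 regulators of Jun and Fos transcription, 1 rose and 3 fell without LPS, among them the Fos promoter factor Elk3 (-0.70 ± 0.07, adjusted p = 8.8e-07). With LPS 3 rose and 1 fell, and Mef2c, a MADS box factor that can act at the Jun promoter, rose by 1.41 ± 0.13 (adjusted p = 3.5e-07). The medians of the 10 were -0.17 and -0.03, and their counts too are near those shares of all genes.

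Of 10 genes that act on AP-1 protein or RNA turnover, 2 rose and 3 fell without LPS, and with LPS 3 fell and the other 7 did not pass, against 18% and 17.5% of all genes without LPS and 22.1% each way with LPS, with medians of -0.07 and -0.00. The RNA-binding protein genes Zfp36l1 (1.07 ± 0.08 without LPS, adjusted p = 2.7e-08) and Zfp36 (-0.70 ± 0.05 with LPS, adjusted p = 2.1e-08) changed most. Of 18 genes often named as AP-1 targets, 17 could be tested: 10 rose and 3 fell without LPS, and 12 rose and 2 fell with LPS, where 18% of all genes rose and 17.5% fell without LPS and 22.1% did each with LPS. Their median change was 0.30 without LPS and 1.07 with LPS, against 0.01 and 0.00 over all genes. The protease gene Mmp12 rose without LPS (1.99 ± 0.26, adjusted p = 2.2e-05), and Timp1, an inhibitor of such proteases, fell with LPS (-2.97 ± 0.32, adjusted p = 2.5e-06). Mmp12 was low without LPS, at a mean of 0.556 in WT and 5.08 in GPS2 KO, so the size of its change depends on the pseudocount of 1. LPS raised 15 of the 17 in WT (34.2% of all genes) and 16 in GPS2 KO (31.5%).

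JunB occupancy was read at 77 peaks: 19 assigned to Fos, 17 to Jun, 10 to Fosl2, 8 each to Fosb and Batf3, 6 to Batf, 4 to Fosl1, 3 to Jund and 2 to Junb. The sequence that AP-1 pairs prefer is TGANTCA, where N is any base and which reads the same on both strands in its fixed letters. It occurred in the middle 201 bases of 34 of the 77 peaks (44.2%), and of 52.4% of the 58840 JunB peaks on chromosomes of the reference. The cyclic AMP form TGACGTCA occurred in 1 (1.3%, against 1.43%), and GAGGAAG, a core of PU.1 sites searched on both strands, in 16 (20.8%, against 17.3%). All 4 peaks of Fosl1 held TGANTCA, as did 9 of 17 at Jun, 6 of 10 at Fosl2, 4 of 8 at Fosb, 4 of 8 at Batf3, 5 of 19 at Fos and 0 of 6 at Batf. A match is a match of letters and says nothing about binding.

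The middle stretches of 9 of these peaks follow, because the JunB results below turn on them: the peak of Jun, Junb, Fos and Batf3 with the highest mean deposited value, called strongest here, 3 neighbouring Fos peaks, the Fosb intron peak that rose most with LPS, and the Batf peak with the smallest adjusted p for GPS2 loss under LPS. They were read from the reference build NCBIM37 (mm9), plus strand, 5′ to 3′, with TGANTCA in capitals.
Jun, peak 53.9 kb upstream, chr4:94772710-94772860: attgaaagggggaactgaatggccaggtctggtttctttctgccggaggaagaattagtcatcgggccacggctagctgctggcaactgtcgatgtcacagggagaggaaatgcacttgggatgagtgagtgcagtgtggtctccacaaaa
Junb, peak 3.6 kb upstream, chr8:87506170-87506320: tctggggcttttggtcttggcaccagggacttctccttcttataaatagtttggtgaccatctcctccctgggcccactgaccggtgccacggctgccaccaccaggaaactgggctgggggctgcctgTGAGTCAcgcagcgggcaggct
Fos, peak 36.9 kb downstream, chr12:86851643-86851793: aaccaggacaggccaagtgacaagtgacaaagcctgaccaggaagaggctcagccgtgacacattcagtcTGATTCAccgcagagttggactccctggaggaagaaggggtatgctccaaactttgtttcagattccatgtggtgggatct
Fos, peak 39.9 kb downstream, chr12:86854677-86854827: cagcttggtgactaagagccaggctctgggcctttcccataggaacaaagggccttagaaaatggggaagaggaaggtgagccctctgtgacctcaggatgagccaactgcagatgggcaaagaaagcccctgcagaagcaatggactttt
Fos, peak 45.9 kb downstream, chr12:86860625-86860775: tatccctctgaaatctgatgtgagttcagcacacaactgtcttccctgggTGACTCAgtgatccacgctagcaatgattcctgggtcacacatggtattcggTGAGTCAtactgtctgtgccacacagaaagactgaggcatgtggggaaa
Fos, peak 50.0 kb downstream, chr12:86864809-86864959: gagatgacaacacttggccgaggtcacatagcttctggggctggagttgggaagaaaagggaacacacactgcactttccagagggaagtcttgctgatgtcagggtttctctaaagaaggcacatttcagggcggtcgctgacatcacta
Fosb, peak 2.4 kb downstream in an intron, chr7:19892918-19893068: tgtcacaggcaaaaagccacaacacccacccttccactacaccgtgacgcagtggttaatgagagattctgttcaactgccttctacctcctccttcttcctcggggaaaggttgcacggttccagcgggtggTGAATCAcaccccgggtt
Batf, peak 24.1 kb downstream, chr12:87051681-87051831: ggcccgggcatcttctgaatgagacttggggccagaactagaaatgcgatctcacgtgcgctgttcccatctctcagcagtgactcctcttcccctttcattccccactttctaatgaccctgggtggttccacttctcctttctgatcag
Batf3, peak 25.5 kb downstream, chr1:192947765-192947915: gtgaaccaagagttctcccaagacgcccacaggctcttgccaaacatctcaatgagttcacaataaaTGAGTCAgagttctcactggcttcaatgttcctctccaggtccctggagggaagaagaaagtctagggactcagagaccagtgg
All but the Fosb peak are intergenic in the deposited annotation. The strongest Jun and Fos peaks, the Fos peak 50.0 kb downstream and the Batf peak hold no match in this stretch, and the Fos peak 45.9 kb downstream holds 2.

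The JunB signal rose with LPS over the whole set of peaks. The share of mapped reads inside the 58888 peaks was 6.91 to 7.51% in WT, 28.8 to 29.2% in WT with LPS, 5.79 to 6.01% in GPS2 KO and 25.2 to 26.4% in GPS2 KO with LPS. On library totals the median of all peaks therefore rose by 2.02 (log2) with LPS in WT and 2.22 in GPS2 KO. All 77 member peaks were called higher in WT and 74 in GPS2 KO, and their medians were 2.20 and 2.00. Nearly all JunB peaks were called higher on that scale, 55836 of 58810 tested in WT and 53969 in GPS2 KO. ChIP-seq changes below are after TMM scaling and so are relative to the bulk of peaks of that experiment. Values of single libraries are reads per 10000000 mapped reads as deposited, without that scaling. On the scaled values 13 of 77 peaks rose (17.3% of all peaks) and 13 fell (21.5%) with LPS in WT, and 7 rose (14.8%) and 17 fell (19.9%) in GPS2 KO.

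None of the 13 JunB peaks that rose with LPS in WT was annotated to a promoter. Few of the member peaks lie at one, and the share among all JunB peaks was not compared, so no preference is shown. The Fosb intron peak went from 2.5 and 3.09 in WT to 69.5 and 74.5 with LPS (log2 change after scaling 2.50 ± 0.50, adjusted p = 2e-05). A weak Fosl2 peak 27.1 kb downstream (2.42 ± 0.71) and the Batf3 intron peak 4.7 kb downstream (1.89 ± 0.44) followed. Fos peaks 36.9, 39.9 and 50.0 kb downstream of the start site rose as well (1.24 ± 0.19, 1.00 ± 0.14 and 1.15 ± 0.29), as did the Jun peak 53.3 kb upstream (1.14 ± 0.19, adjusted p = 2e-07). The peak next to it, 53.9 kb upstream, had the highest JunB level of the Jun peaks and fell relative to the bulk (-0.77 ± 0.10, adjusted p = 1.9e-11), although its deposited values rose from 76.8 and 88 to 196 and 199.8. Peaks at the promoters of Fosb (-0.88 ± 0.21) and Fosl2 (-0.80 ± 0.16) and at the 5′ end of Jund (-1.17 ± 0.20) also fell on the scaled values and rose on library totals (1.17, 1.23 and 0.87). Without WT replicate 2, 17 peaks were called in WT.

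Few JunB peaks were called for GPS2 loss without LPS, at the members as over all peaks. Untreated libraries held 6.91 to 7.51% (WT) and 5.79 to 6.01% (GPS2 KO) of mapped reads in peaks. With LPS the shares were 28.8 to 29.2% and 25.2 to 26.4%, so changes without LPS were harder to call. Fewer calls there do not mean fewer changes. Of the 77, 4 were higher and 1 lower (5.19% and 1.3%), near the 6.26% and 2.16% of all peaks. The lower one was the Jun peak 53.9 kb upstream, at 76.8 and 88 in WT and 40.9 and 41.6 in GPS2 KO (-0.68 ± 0.17, adjusted p = 0.0052). The higher ones lay at Batf3 (13 kb downstream, 1.5 ± 0.46, adjusted p = 0.022), Jun (109.3 kb upstream, 1.30 ± 0.28), Fosl1 (0.2 kb downstream, 1.03 ± 0.27) and Fosb (its promoter, 0.78 ± 0.25). The count was 2 on library totals, 1 without WT replicate 1 or without WT replicate 2, and 2 without GPS2 KO replicate 1.

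With LPS, 17 of the 77 peaks were lower in GPS2 KO and 6 higher, 22.1% and 7.79% of them, where 14.5% and 14.6% of all JunB peaks were called. Of the 17, 7 lay at Fos. Its strongest peak, 39.9 kb downstream, held 28.7 and 41.7 in WT, 279 and 289 in WT with LPS, 21.7 and 20.8 in GPS2 KO and 186 and 189 in GPS2 KO with LPS, so that in these deposited values both GPS2 KO libraries were below both WT libraries in each treatment. Its change with GPS2 loss under LPS was -0.44 ± 0.06 (adjusted p = 2.4e-09), and without LPS -0.36 ± 0.25 (adjusted p = 0.43). The peaks beside it were lower too, at 36.9 kb (208 and 189.6 against 135 and 116, change -0.54 ± 0.09), 45.9 kb (194 and 195 against 144 and 130.5, -0.37 ± 0.08) and 50.0 kb (-0.48 ± 0.16), as were those 15.6 kb downstream (-0.50 ± 0.17) and 36.1 and 37.5 kb upstream (-0.42 ± 0.10 and -0.86 ± 0.20). The 1 higher Fos peak lay 18.6 kb upstream (0.85 ± 0.23, adjusted p = 0.0025).

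At the other members the lower peaks were 3 at Jun, 2 at Fosl2, 2 at Batf3 and 1 each at Junb, Jund and Fosb. They included the strongest peak of Jun (196 and 199.8 in WT with LPS, 134 and 156 in GPS2 KO with LPS, -0.28 ± 0.08), of Junb (167 and 173 against 128 and 129, -0.25 ± 0.09) and of Batf3 (183 and 189.6 against 159.8 and 133, -0.22 ± 0.08), and the Fosb intron peak (69.5 and 74.5 against 43.1 and 47, -0.51 ± 0.17). The higher ones were 2 at Batf, 2 at Fosl2, 1 at Fos and 1 at Jun. The Batf peak 24.1 kb downstream held 44.1 and 33 in WT with LPS and 67 and 63 in GPS2 KO with LPS (0.89 ± 0.18, adjusted p = 3.6e-05), and the Jun peak 126.5 kb upstream had the largest change (1.12 ± 0.27, adjusted p = 0.00072). The strongest peaks of Fosb (-0.10), Fosl1 (-0.12), Fosl2 (-0.03), Jund (0.40) and Batf (0.24) did not pass. Without precision weights 0 of the 77 peaks were called, and 14 higher and 3 lower among all 58810 tested, so these calls rest on the weights. Without GPS2 KO LPS replicate 1 or 2, 15 of the 77 were called in each case. The call at the strongest Jun peak was lost without the first of these (adjusted p = 0.18), and those at Junb and Batf3 in several fits without 1 library (adjusted p up to 0.12 and 0.55).

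Split by sequence, the 34 member peaks with TGANTCA held 12 of the 17 lower and 1 of the 6 higher ones, with a median change of -0.23 where all JunB peaks with the motif had -0.03. The 43 without it held 5 lower and 5 higher, with a median of 0.03 (0.05 over all such peaks). The split was not tested, and the shares of all JunB peaks called with and without the motif were not counted. The counts of called members by sequence are therefore no result about the motif. The difference between the LPS responses of the genotypes was called by limma at 0 of 77 peaks in the higher direction (1.83% of all peaks; 2 at an unadjusted p under 0.05) and at 1 in the lower (3.34%; 11), the Fosl1 peak 0.2 kb downstream of its start (-1.27 ± 0.30, adjusted p = 0.0053), which held 15.6 and 20.1 in WT, 91.2 and 83 with LPS, 32.5 and 25.4 in GPS2 KO and 68 and 65.2 with LPS. It was not called without WT replicate 1 or without precision weights, and 3 peaks were called without GPS2 KO replicate 2.

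**Figure D3:**
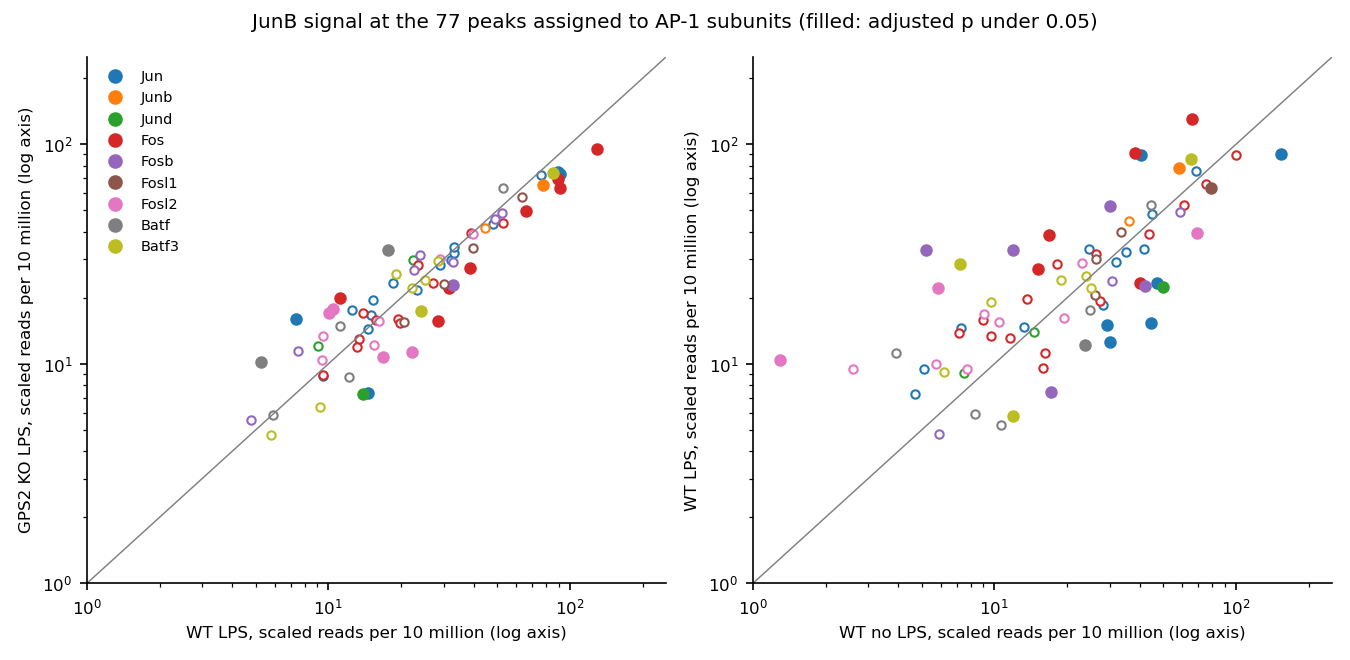
JunB at the 77 peaks assigned to AP-1 subunits, in TMM-scaled reads per 10000000, mean of 2 libraries (both axes logarithmic, grey line of equality). Left, GPS2 KO against WT, both with LPS. Right, WT with LPS against WT. Filled points passed at an adjusted p under 0.05, and at left most filled Fos points (7 of 8) lie below the line.

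Many of the JunB peaks overlapped regions of the other assays. Member regions reach 13854 bases for MED1 and 29805 for Pol II, and region width was not taken into account. Open chromatin was measured without LPS only, and MED1 and Pol II with LPS only. Of the 77 JunB peaks, 60 overlapped a MED1 peak by at least 1 base (77.9%, where 47% of all JunB peaks did), 57 an open chromatin peak (74% against 67.7%), 39 a Pol II peak (50.6% against 34.2%) and 29 a PU.1 peak (37.7% against 37%). The Fos peaks 36.9, 39.9 and 50.0 kb downstream overlapped all of MED1, PU.1 and open chromatin.

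PU.1, the lineage factor of macrophages, was read at 64 peaks: 19 at Jun, 15 at Fos, 9 at Fosl2, 7 at Batf3, 5 at Batf, 3 each at Junb and Fosb, 2 at Jund and 1 at Fosl1. The share of mapped reads in PU.1 peaks was 24.8 to 25.2% in WT and 15.5 to 16% with LPS, and 17.2 to 17.5% and 11.7% in GPS2 KO, so on library totals the median of all peaks shifted by -0.55 (GPS2 loss), -0.42 (GPS2 loss with LPS), -0.70 (LPS in WT) and -0.57 (LPS in GPS2 KO). On totals 45, 27, 43 and 31 of the 64 peaks were lower in these comparisons, and 0, 0, 2 and 2 higher. Of all 52009 peaks tested, 23772, 13409, 30920 and 20661 were lower and 275, 1033, 694 and 1552 higher. Relative to the bulk of peaks, 9 of 64 rose (11.4% of all) and 6 fell (7.24%) with LPS in WT, and 15 rose (11.0%) and 8 fell (7.89%) in GPS2 KO.

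JunB rose with LPS in WT at 4 Fos peaks. Of the 3 named above, 2 overlapped a PU.1 peak that rose as well. The PU.1 peak 39.9 kb downstream held 44.5 and 40.2 in WT and 76 and 69.9 with LPS (1.48 ± 0.18, adjusted p = 6.2e-13), and it was higher on library totals too (0.76). The one 36.8 kb downstream rose by 0.95 ± 0.14. The PU.1 peak that overlaps the JunB peak 50.0 kb downstream did not pass (0.30 ± 0.20, adjusted p = 0.3; -0.41 on library totals), while another, 49.3 kb downstream and outside that JunB peak, rose by 1.72 ± 0.26. The peak at the Fos promoter fell, from 61.4 and 83.9 to 26.1 and 27.2 (-0.68 ± 0.22, adjusted p = 0.016). In GPS2 KO the peaks 36.8, 39.9 and 49.3 kb downstream rose by 0.53, 1.2 and 0.94, and the promoter peak fell (-1.11). On library totals the 36.8 kb peak was at 0.23 in WT and -0.04 in GPS2 KO, so its direction in GPS2 KO depends on the scale, and the other two were above 0 in both. No test of a difference between these responses passed at the 15 Fos peaks.

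GPS2 loss changed 6 of 64 PU.1 peaks without LPS (4 higher, against 4.90% of all peaks, and 2 lower, against 3.08%) and 7 with LPS (3 higher, 4.97%, and 4 lower, 3.67%). Without LPS the largest was the single Fosl1 peak, 6.93 and 17.2 in WT and 19.7 and 17.3 in GPS2 KO (1.36 ± 0.40, adjusted p = 0.015), whose WT libraries differ. It was not called without either WT library or GPS2 KO replicate 1, and 3 of the 64 were called without either GPS2 KO library. With LPS the largest was a Fosb peak 16 kb upstream, 32.9 and 33 in WT and 7.71 and 7.7 in GPS2 KO (-1.62 ± 0.41, adjusted p = 0.0034). It was not called without either GPS2 KO LPS library (adjusted p = 0.067). Leaving out a WT LPS library left 2 calls among the 64, and leaving out a GPS2 KO LPS library left 1. The LPS calls in WT fell to 9 without WT replicate 1 and to 6 and 8 without WT LPS replicates 1 and 2, and in GPS2 KO to 9 without GPS2 KO replicate 1 and 14 without GPS2 KO LPS replicate 2.

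The LPS response of PU.1 differed between genotypes at 6 peaks, 1 higher (4.21% of all peaks) and 5 lower (4.01%), and 5 of the 6 lay upstream of Jun. On library totals 4 were higher and 3 lower, where 3121 and 1129 of all 52009 peaks tested were. The Jun peaks 180.4 and 158.4 kb upstream lost their calls on that scale (adjusted p = 0.081 and 0.11). At the peak 140.9 kb upstream WT held 114 and 101, then 71.4 and 73.8 with LPS, and GPS2 KO 45.9 and 40.8, then 76.1 and 71.2 with LPS, a difference of 1.18 ± 0.23 (adjusted p = 6.7e-05). The strongest Jun peak, 54.0 kb upstream and beside the JunB peak, went from 337 and 346 to 254 and 227 in WT and from 299 and 273 to 169.6 and 153 in GPS2 KO (-0.46 ± 0.10, adjusted p = 0.00032). The peak 4.1 kb upstream of Junb had a difference of the same sign, at 172 and 199, then 129 and 126 in WT, and 153 and 167, then 71.3 and 72.2 in GPS2 KO (-0.76 ± 0.16, adjusted p = 0.00022).

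MED1, a subunit of the Mediator complex that links enhancers with Pol II, was compared between genotypes with LPS at 49 member peaks. On the scaled values 4 were higher in GPS2 KO (5.16% of all peaks) and 0 lower (1.92%) by limma with precision weights, where 2 were lower at an unadjusted p under 0.05 and 1 was called lower without the weights. Junb led, with 981 and 997 in WT and 862 and 872 in GPS2 KO (0.58 ± 0.03, adjusted p = 4.7e-29), followed by Jund (271 and 285 against 209 and 253, 0.50 ± 0.08) and Fosl2 (345 and 334 against 251 and 244, 0.31 ± 0.07). The last was a small Batf peak 19.9 kb upstream (17.4 and 19.1 against 22.6 and 22.6, 1.07 ± 0.31, adjusted p = 0.019), which lost its call when any of the 4 libraries was left out and was at 0.30 on library totals. At Fos the promoter peak had 216 and 171 against 96.5 and 129.9 (-0.00 ± 0.12, adjusted p = 0.99), and the peak 49.9 kb downstream 86.8 and 84.7 against 31.3 and 35.2 (-0.59 ± 0.20, adjusted p = 0.052). The share of mapped reads in MED1 peaks was 14.6% in WT and 8.81 to 8.92% in GPS2 KO. On library totals the median of all peaks shifted by -0.77 and 30 of the 49 were lower, as were 17690 of all 26052 peaks tested. The Junb, Jund and Fosl2 peaks were at -0.19, -0.27 and -0.46 there, so their direction depends on the scale.

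Pol II was compared between genotypes with LPS at 27 member peaks. The peaks over the genes were wide, with 29805 bases for Junb, 14968 for Fos, 14304 for Fosl2, 12389 for Jund and 9803 for Jun. Each reaches past its gene, and the signal was not divided between the gene and its flanks. Its share of mapped reads in peaks was 45.0 to 46.4% in WT with LPS and 14.2 to 14.4% in GPS2 KO with LPS, so the median of all peaks was shifted by -1.88 (log2) on library totals and the direction of a member depends on the scale. After scaling, 6 of 27 peaks were higher (24.2% of all) and 7 lower (20.2%), and on library totals 0 were higher and 26 lower. Of all 23081 peaks tested, 643 were higher and 20862 lower on library totals. The peak over the Fos gene held 3202 and 3256 in WT and 240.4 and 273 in GPS2 KO (-1.77 ± 0.07, adjusted p = 4.1e-26, and -3.65 on library totals). The one 15.2 kb downstream of the Fos start site held 1196 and 1238 against 141 and 128 (-1.29 ± 0.10, and -3.18 on totals). These were lower on both scales, as were Fos 36.0 kb upstream (-1.07), the peak over the Jun gene (1728 and 1745 against 376 and 416, -0.25 ± 0.06, and -2.13 on totals) and Jun peaks 110.2 and 164.4 kb upstream (-0.75 and -0.77). A Batf intron peak 18.8 kb downstream of the start site was lower on both scales too (173 and 193 against 27.2 and 40.2, -0.56 ± 0.19). Its call was lost without WT replicate 2 or GPS2 KO replicate 1. Batf had no Pol II peak within 10 kb of its start site.

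In the deposited values, Pol II at Junb and Jund was lower in GPS2 KO by less than at most peaks. Junb held 6189 and 5861 in WT and 3685 and 3639.8 in GPS2 KO, a change of 1.17 ± 0.02 relative to the bulk (adjusted p = 2.8e-45) and of -0.71 on library totals. Jund held 1802 and 1689 against 1049 and 1087 (1.18 ± 0.04; -0.71 on totals), Fosl2 1728 and 1624 against 691 and 665 (0.58 ± 0.05; -1.30 on totals) and Fosb 75.3 and 69.3 against 37.2 and 36.5 (0.92 ± 0.20; -0.96 on totals). The scales thus give these 4 genes opposite signs, and the deposited values are lower in GPS2 KO at each. The remaining higher ones were a weak peak at the end of Fosl2 (11.7 and 6.3 against 11.8 and 7.31, 1.99 ± 0.44; 0.12 on totals) and a weak one 59.3 kb downstream of Fos (0.69 ± 0.27; -1.2 on totals). Fosl1 had no Pol II peak in the table.

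**Figure D4:**
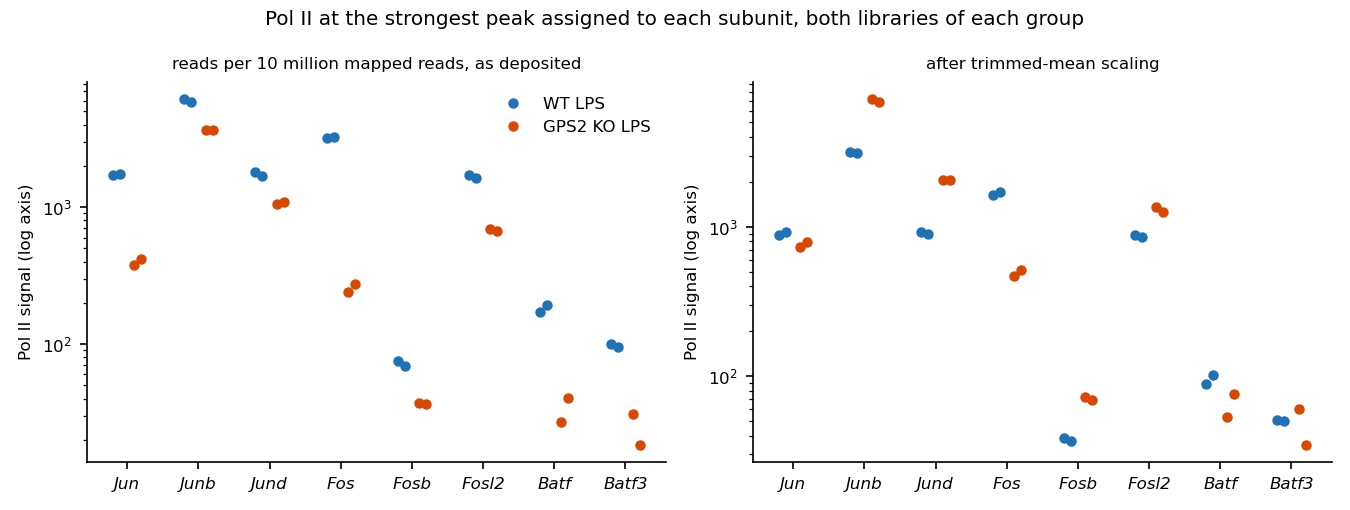
Pol II at the strongest peak of each subunit with one, in reads per 10000000 mapped reads as deposited (left) and after TMM scaling (right), with both libraries of WT and GPS2 KO, all with LPS (logarithmic axes). Fos is lower in GPS2 KO in both panels, whereas Junb and Jund are lower at left and higher at right. The peaks of Batf and Batf3 lie 18.8 and 12.3 kb from the start site.

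**Figure D5:**
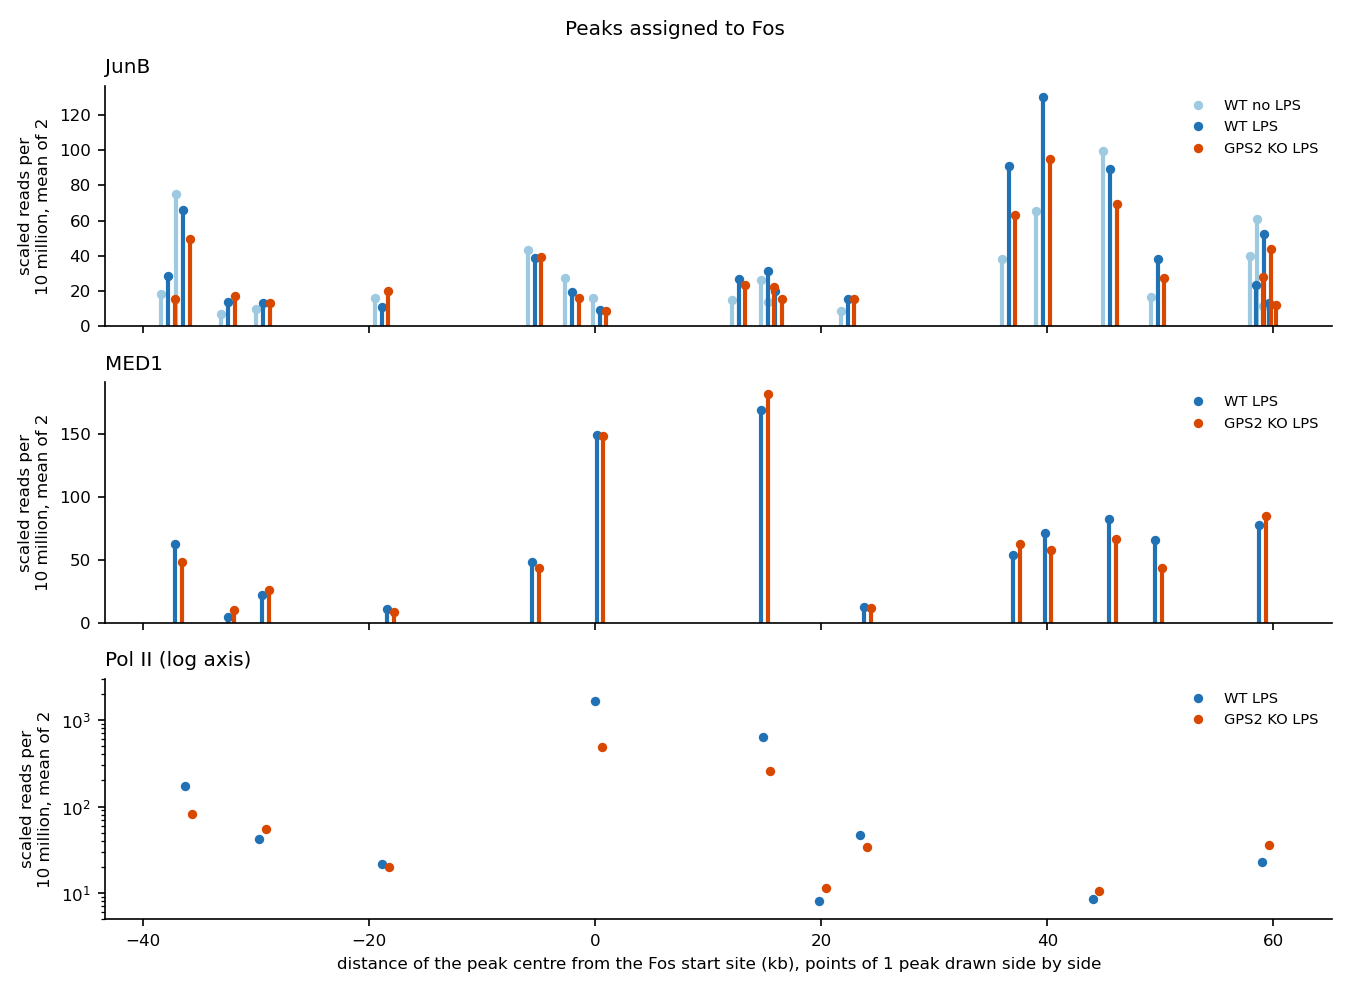
JunB, MED1 and Pol II at the peaks assigned to Fos, by distance of the peak centre from the Fos start site in kb (horizontal axis), as TMM-scaled reads per 10000000, mean of 2 libraries (logarithmic for Pol II). JunB is shown for WT, WT with LPS and GPS2 KO with LPS, and the JunB peaks 36.9 to 50.0 kb downstream are lower in GPS2 KO than in WT with LPS.

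Set beside each other at their different times, RNA after 6 hours and Pol II after 2 hours were both lower in GPS2 KO for Fos with LPS. For Jun, RNA was higher (1.05) and Pol II in the peak over the gene lower (-0.25). For Junb, Jund and Fosl2, RNA was lower (-0.92, -1.05 and -1.49) and Pol II was higher relative to the bulk of peaks and lower on library totals.

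Few of the 76 open chromatin peaks differed between untreated control and GPS2 KO cells. In the deposited log2 values, 1 was higher (4.04% of all peaks) and 2 lower (3.16%), and the median over the 76 was -0.01. The higher one lay 13.1 kb downstream of Batf3 (4.97, 5.12 and 5.22 in control, 5.58, 5.23 and 5.47 in GPS2 KO, 0.32 ± 0.08, adjusted p = 0.0044), near the JunB peak that was higher without LPS. The lower ones lay 36.8 kb upstream of Fos (6.93, 6.89 and 6.8 against 6.54, 6.6 and 6.63, -0.29 ± 0.08, adjusted p = 0.0083) and 32.2 kb downstream of Fosl2 (-0.14 ± 0.05, adjusted p = 0.04). None of the 3 was called without control replicate 1, and 1 without GPS2 KO replicate 1. At the start sites the groups overlapped for Fos (7.66, 7.81 and 7.51 against 7.64, 7.68 and 7.59) and for Jun (8.56, 8.57 and 8.46 against 8.57, 8.47 and 8.52), whose RNA differed most in untreated cells among the abundant members.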

How the data were processed

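The members and gene lists were chosen with earlier results of these data known, so no count over a list is independent evidence. RNA and ChIP-seq values are, per the file headers, reads normalised by the authors to 10000000 mapped reads (100% of low values came back as whole reads within 0.05 read). ATAC-seq values were deposited by the authors as log2 values, with the exact transformation not stated. Peaks and their annotation are the authors', on mm9, and Bowtie2, BWA, HISAT2, MACS2 and HOMER are named in the submitters' processing notes without roles. Values of 8 columns that no sample label matched were not used. RNA was tested with limma 3.58.1 in R 4.3.3 on log2(value + 1) after TMM scaling, ChIP-seq with limma and precision weights on recovered reads, and ATAC-seq with limma on the deposited log2 values, after tests on simulated data. Features with fewer than 15 reads in all, or reaching 10 reads (scaled to the median depth) in fewer libraries than the smallest group holds, were not tested. Adjusted p-values cover all features tested. Sequences were read from NCBIM37, in which all 58840 JunB peaks on its chromosomes lie within bounds, and overlaps used bedtools 2.31.1. By rule, the text names all members, their strongest JunB peak, the largest called change of each table, 1 gene per list and treatment, and 2 genes with the most alike pattern, except that 1 gene the rule names is not reported here; other peaks were chosen after their values were seen. Alternatives covered scaling, filters, pseudocounts, weights, a replicate block and leaving out each library.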

Additional observations from a re-analysis of the deposited data

Results flagged for a closer look

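In 2 of the 32 RNA groups checked, 1 library lay far from the other 3: Jund in WT LPS replicate 4 (3060, the others 1648 to 1804) and Fosl2 in GPS2 KO LPS replicate 4 (869, the others 785 to 792). Chance gives such a gap in about 1 of 20 groups. The LPS response differed between the genotypes, by a test of the difference itself, for the RNA of Fos (log2 1.04), Fosl1 (0.78) and Fosl2 (-1.37). The value for Batf (1.27) is listed beside these but is no evidence of a difference, since Batf passed the filter on low values only through GPS2 KO with LPS, and it was 0.70 with a pseudocount of 0.5 and -0.19 with precision weights, neither of which passed.

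JunB had such a difference at the Fosl1 peak 0.2 kb downstream (-1.27). PU.1 had it at the Jun peaks 180.4 (-0.96), 158.4 (-0.93), 140.9 (1.18), 54.0 (-0.46) and 31.9 kb (-0.84) upstream, and at the peak 4.1 kb upstream of Junb (-0.76).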

How the results depend on the processing

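Under the alternatives, 245 counts of called members stayed within 1.5 times the value reported, 37 were lower and 8 higher. Of the single values followed through the alternatives (the RNA of the 7 tested members and the peaks named by rule) 1037 kept direction and call, 50 lost and 8 gained a call, and 5 changed sign. Those were Batf's difference between LPS responses with precision weights (-0.19) and Pol II on library totals at Junb (-0.71), Jund (-0.71), Fosl2 (-1.30) and Fosb (-0.96). Other JunB, PU.1, MED1 and Pol II peaks named in the text also change sign on library totals, and that value is not given beside every one. On library totals the counts were 45, 27 and 45 for PU.1 (GPS2 loss, GPS2 loss with LPS, LPS in WT), 2, 77 and 74 for JunB (GPS2 loss, LPS in WT, LPS in GPS2 KO), 30 for MED1 and 26 for Pol II, the median of all peaks having moved. Without precision weights they were 3 for PU.1 (GPS2 loss) and 0 for JunB (GPS2 loss with LPS, and the difference of responses); ATAC-seq without a mean trend gave 1. Peaks within 10 kb of a start site, a smaller set, gave 0 for ATAC-seq, 2, 1, 3, 7 and 1 for PU.1, 2, 4, 9 and 12 for JunB and 6 for Pol II. Leaving out 1 library gave 2 to 5 for the RNA difference of responses, 0 to 3 for ATAC-seq, 3 to 6, 1 to 7, 6 to 15, 9 to 23 and 4 to 6 for PU.1, 1 to 6, 15 to 25, 17 to 30, 17 to 25 and 0 to 3 for JunB, 3 for MED1 and 11 to 14 for Pol II. Where 2 libraries a group became 1, the lone library was assumed to vary like the others. Replicate numbers did not pair the samples (RNA deviations of same-numbered libraries correlated at -0.367 to 0.211, ATAC-seq and ChIP-seq at -0.012 to 0.010): with a replicate block the RNA counts were 6, 6, 7, 7 and 3, those of PU.1 6, 7, 14, 22 and 5, of JunB 5, 22, 26, 26 and 1, of ATAC-seq 3, of MED1 4 and of Pol II 13, and the call of Batf's difference was lost (adjusted p = 0.055, limma). The planned count test was not run because the tables hold normalised values; limma with precision weights on the recovered reads took its place. Depth limits Fosb and Batf, with at most 32 and 194 reads per group.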
